A study of Mus musculus with 62 samples.

Results

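The regions described here carried dimethylated histone 3 lysine 4 (H3K4me2) in both the diaphragm (Dia) and the quadriceps femoris (Quad) of the mouse, and the question was where the level of the mark differed between the muscles. A Dia peak and a Quad peak were taken as the same region when each was the best match of the other and the overlap covered at least 50% of both. This gave 22297 matched regions, which were 67.3% of the 33138 peaks in the Dia list and 51.2% of the 43525 peaks in the Quad list. The study profiled histone marks, open chromatin and bound factors in mouse skeletal muscle in 62 libraries, of which 4 are compared here, with 2 H3K4me2 libraries from each muscle. All 4 came from wild-type C57BL/6 mice (C57BL/6J in the study's methods) that were sedentary, and the same rabbit antibody was used for each. Per the study's methods the mice were male and 7 to 8 weeks old when purchased, each Quad sample was a single muscle of 1 animal, and each Dia sample was pooled from 3 animals. A Dia replicate therefore averages over animals and a Quad replicate does not. The peaks that did not match, 10841 in Dia and 21228 in Quad, are not members, and 5864 Dia peaks and 16675 Quad peaks overlapped no peak of the other list at all.

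H3K4me2 sits on the nucleosomes that flank promoters and enhancers, including enhancers that are poised rather than active, and it tends to mark the regulatory repertoire of a cell type, whereas acetylation of histone 3 lysine 27 (H3K27ac) follows activity more closely. The quadriceps of the mouse is a limb muscle made mostly of fast glycolytic fibers. The diaphragm contracts throughout life, is built largely of oxidative fibers with more slow fibers than Quad, is covered by mesothelium on both faces, and forms from a different region of the embryo than the hindlimb.

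The H3K4me2 libraries held 17246922 and 18165700 tags (the totals of reads per library in the file headers) in Dia, and 22731207 and 19660934 tags in Quad. For the second Dia library the headers and the study's own table of read numbers disagree, since that table exchanges its total with that of the second Dia H3K27ac library, and the headers are followed here. The value in each library is a log2 tag level from the study's own lists, less the log2 of the peak's width in kb, and set relative to the median region of that library, so that 0 is the typical matched region and a level of 1 is 2-fold above it. A difference is the mean of the Dia libraries minus the mean of the Quad libraries, set so that the median over all regions is 0. The lists were normalized separately for each muscle, so no test was run between them, and with 2 libraries against 2 an exact permutation test could not have given a p below 0.33. Instead a region is called when the means were over 2-fold apart and both Dia libraries lay on the same side of both Quad libraries.

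At the matched regions, which by the rule are peaks of both muscles, the H3K4me2 levels of Dia and Quad were similar. Spearman's rank correlation over the 22297 regions was 0.908 between the group means and 0.892 to 0.904 between single libraries of different muscles, against 0.978 between the Dia replicates and 0.977 between the Quad replicates. These correlations are across regions, which share libraries and are not independent. The differences had an SD of 0.36 over regions, against 0.19 for the difference between Dia replicates and 0.20 between Quad replicates. A total of 89.8% of regions lay within 1.5-fold, and the 5th and 95th percentiles of the difference were -0.61 and 0.57. Although 15410 regions (69.1%) had Dia and Quad libraries that did not overlap, few were far apart. Of the 22297 regions, 352 (1.58%) were called, 135 higher in Dia (0.605%) and 217 lower (0.973%). Replicates of the same muscle were over 2-fold apart in 9 regions for Dia and in 5 for Quad.

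**Figure D1:**
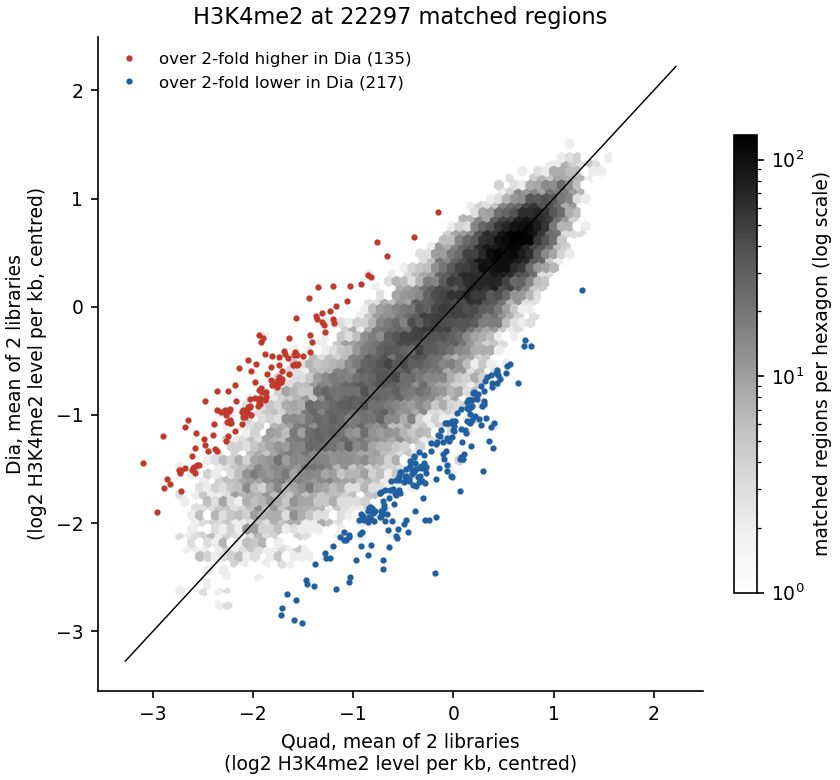
H3K4me2 level of the 22297 matched regions, with the mean of the 2 Quad libraries on the x axis and the mean of the 2 Dia libraries on the y axis (log2 level per kb, relative to each library's median region). Grey shading counts regions on a log scale, and coloured points are the 135 regions over 2-fold higher and the 217 over 2-fold lower in Dia, most of which lie at levels below 0.

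The called regions were weakly marked in the muscle where they were low and not strongly marked in the other. Regions higher in Dia had a median level of -0.77 in Dia and -1.94 in Quad, and regions lower in Dia had medians of -1.52 in Dia and -0.31 in Quad. Their median differences were 1.14 and -1.15. The called regions were also narrow, with median widths in the Dia list of 1015 bp for the higher and 1058 bp for the lower regions, against 1978 bp over all matched regions. In bulk muscle, fewer cells that carry a mark and less of the mark per cell cannot be told apart.

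The calls must be read beside differences between samples of the same muscle. The study has 2 further sets of sedentary wild-type C57BL/6 Quad, the untrained controls of its wheel-running experiment (Sed) and the controls of its PGC1α transgenic mice (Wt). By the same rule, 0.739% of regions were called between Quad and Sed and 2.69% between Quad and Wt, which are comparisons of Quad with Quad. Between Dia and Sed 1.09% were called, and between Dia and Wt 1.27%. The rank correlation of group means was 0.906 between Quad and Sed and 0.894 between Quad and Wt, against 0.908 between Dia and Quad. The SD of the differences was 0.35 and 0.43, against 0.36, each over its own matched regions. By these measures the sets of Quad differed from each other about as much as Dia and Quad did. These comparisons share the Dia or the Quad libraries with the 352 calls, so their values at those regions are given side by side and are no independent support. At the regions higher in Dia than in Quad, the median difference was 0.50 for Dia minus Sed (55 regions found) and -0.72 for Quad minus Sed (54 found). With Wt the medians were 0.51 (95 found) and -0.66 (92 found). At the regions lower in Dia, the medians were -0.80 for Dia minus Sed (121 found) and 0.43 for Quad minus Sed (127 found), and with Wt they were -0.51 (137 found) and 0.64 (145 found). By these medians, the Dia and the Quad libraries lay on opposite sides of the other quadriceps libraries in each case.

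The input libraries, sheared chromatin with no antibody, moved with the calls. Each list gives input values for its own muscle, 1 input library for Dia and 2 for Quad, on the same log2 scale and per kb. At the 135 regions higher in Dia the input was higher in Dia by a median of 0.87, and at the 217 lower regions it was lower, with a median of -1.05. Over all regions the input difference and the H3K4me2 difference had a Spearman's rank correlation of 0.607, given as a description since both come from the same peak lists and the same widths. With the input subtracted, 219 regions passed the 2-fold rule, 183 higher and 36 lower, but only 9 of them were among the 352. One of the 9, at Cdh1, passed in the opposite direction (-1.07). Of the 135 higher regions 110 kept a positive sign, with a median of 0.34, and of the 217 lower regions 143 kept a negative sign, with a median of -0.14. The deposited values appear to be shrunk within each list toward a common level per region, input included, and how much of the input difference this gives was not tested. The input difference is given beside most of the regions described below.

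**Figure D2:**
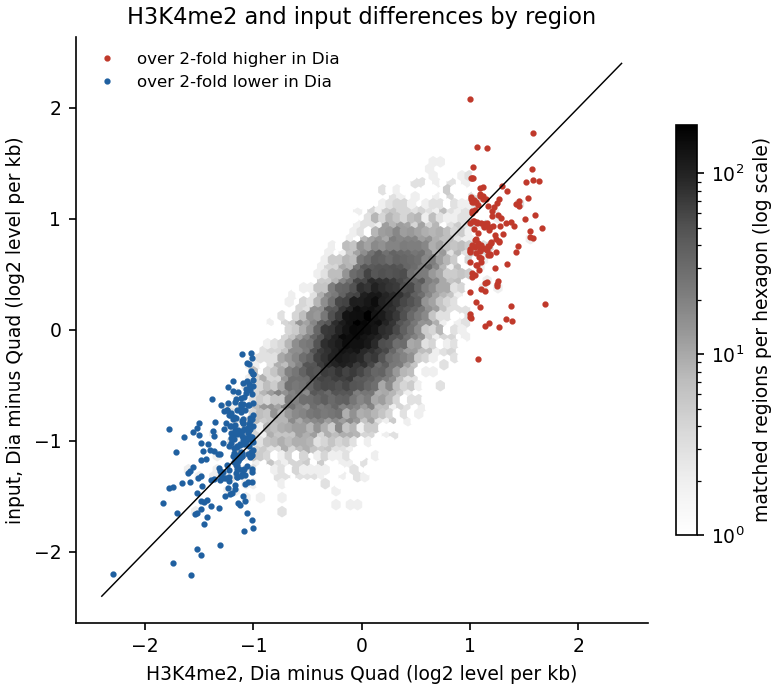
Difference in H3K4me2 between Dia and Quad (x axis) against the difference in the input libraries (y axis) at the 22297 matched regions, both as log2 level per kb. Grey shading counts regions on a log scale, the line marks equal differences, and nearly all of the called regions, in color, have an input difference of the same sign.

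Sequences from called regions near transcription factor genes are shown so that the marked elements can be inspected directly, chosen after their values were seen. They were read from the mouse genome of the files' build (GRCm38, mm10; RefSeq), plus strand, as windows of 200 bases. Capitals mark matches to any of 6 short motifs, searched on both strands. They are CAGCTG, the E-box bound by myogenic factors, then CTANNNNTAG for MEF2 factors, TCAGGTT for the MEF3 site of muscle genes, the MCAT letters CATTCC that TEAD factors bind, AGATAA for GATA factors, and TAATCC for homeodomain factors of the bicoid type. A match on the reverse strand is in capitals as well. The motifs could overlap each other and were counted separately. The following 4 windows lie at regions lower in Dia and are centred on an open chromatin (ATAC-seq) peak of Quad control mice. The window of Maf begins outside its region and ends before the Quad peak, which starts at 115562691. Both of its motif matches lie before the Dia peak, which starts at 115562585.
Klf15 (chr6:90496321-90496520): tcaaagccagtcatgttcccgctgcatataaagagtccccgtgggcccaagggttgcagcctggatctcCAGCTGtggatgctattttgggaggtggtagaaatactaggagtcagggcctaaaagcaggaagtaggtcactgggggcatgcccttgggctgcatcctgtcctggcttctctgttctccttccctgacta
Eya4 (chr10:23237040-23237239): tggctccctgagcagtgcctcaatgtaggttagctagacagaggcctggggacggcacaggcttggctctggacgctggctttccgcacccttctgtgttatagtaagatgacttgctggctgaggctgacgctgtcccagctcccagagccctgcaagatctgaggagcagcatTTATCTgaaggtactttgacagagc
Sox6 (chr7:115568519-115568718): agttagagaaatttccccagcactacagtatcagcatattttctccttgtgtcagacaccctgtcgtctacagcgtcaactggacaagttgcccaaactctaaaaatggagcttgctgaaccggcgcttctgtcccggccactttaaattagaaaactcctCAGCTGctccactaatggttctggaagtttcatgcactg
Maf (chr8:115562473-115562672): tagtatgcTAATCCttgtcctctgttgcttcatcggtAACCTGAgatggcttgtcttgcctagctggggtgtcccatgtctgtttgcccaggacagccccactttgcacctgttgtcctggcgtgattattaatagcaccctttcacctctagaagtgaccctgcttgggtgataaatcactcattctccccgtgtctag
The next 2 windows are the centers of regions higher in Dia, near Gata4 and Hoxb2.
Gata4 (chr14:63255539-63255738): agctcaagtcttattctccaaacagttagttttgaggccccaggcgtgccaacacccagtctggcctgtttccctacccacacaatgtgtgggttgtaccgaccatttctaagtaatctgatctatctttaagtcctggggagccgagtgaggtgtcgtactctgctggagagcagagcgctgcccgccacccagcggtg
Hoxb2 (chr11:96352910-96353109): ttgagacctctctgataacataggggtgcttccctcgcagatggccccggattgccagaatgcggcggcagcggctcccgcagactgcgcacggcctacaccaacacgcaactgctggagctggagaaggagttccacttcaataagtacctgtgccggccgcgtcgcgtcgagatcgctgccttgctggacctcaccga
The Klf15 and Sox6 windows each held CAGCTG, and the Eya4 window held the GATA letters. The Maf window held TAATCC and the MEF3 letters, both outside the peaks of either muscle. The Gata4 and Hoxb2 windows held none of the 6, which says only that these letters are not in those 200 bases.

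In the central 200 bases of every region, the muscle E-box CAGCTG was present in 12.7% of all 22297 matched regions, 11.1% of the regions higher in Dia and 17.5% of those lower in Dia. The MEF2 letters were present in 2.62% of all regions, 2.96% of the higher and 6.45% of the lower regions. The MEF3 letters were in 2.58% of all, 1.48% of the higher and 4.15% of the lower regions. CATTCC was present in 9.60% of all, 15.6% of the higher and 14.3% of the lower regions. AGATAA was in 6.49% of all, 10.4% of the higher and 5.07% of the lower regions, and TAATCC was in 4.53%, 4.44% and 4.61%. The median GC content of these windows was 54% over all regions, 53% at the higher and 47% at the lower regions, so base composition moved along with the lower set, and its part in the shares was not tested. A match is a description of the letters and not a bound site.

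Called regions lay mostly outside promoters, as labelled by the authors' annotation. Of 3617 promoter regions 18 were called (0.498%), against 202 of 13563 intragenic regions (1.49%) and 132 of 5117 intergenic regions (2.58%). The median distance to the nearest transcription start was 12840 bp for the higher and 29325 bp for the lower regions, against 1357 bp over all, and 20.7% and 30.0% of them lay over 50 kb away against 13.5% of all regions. Quad open chromatin was found at 57.6% of the lower regions (125 of 217) and 17.8% of the higher regions (24 of 135), against 67.3% of all regions. Dia ATAC-seq was not analysed here, so whether the higher regions were open in Dia was not tested. Peaks of MED1, a subunit of the Mediator complex at active enhancers, overlapped 5.71% of all regions in Quad and 5.04% in Dia. They overlapped 4 of the 217 lower regions in Quad (1.84%) and 1 of the 135 higher regions in Dia (0.741%).

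By that label the promoter calls went almost all one way, with 17 higher in Dia and 1, at Kcnip1 (a potassium channel interacting protein), lower. Other called regions close to a start were labelled intragenic and are not counted here. Examples are Itgb4 (155 bp from the start, higher) and Abcc8 (247 bp, lower). The 17 were weak promoters, with a median level of -0.78 in Dia and -1.91 in Quad, while all promoters had medians of 0.45 and 0.42. A Quad ATAC-seq peak was present at 2 of the 17 (11.8%), against 78.4% of all promoters. Their input was higher in Dia by a median of 0.96. Their medians against the other quadriceps were 0.31 for Dia minus Sed (11 found) and 0.36 for Dia minus Wt (16 found), with -0.81 for Quad minus Sed (12 found) and -0.89 for Quad minus Wt (15 found). Genes at these promoters included Asic2 (an acid-sensing ion channel), Ctnna2 (the alpha-catenin of neurons), Epha8 (an ephrin receptor) and Pcsk6 (a proprotein convertase), named after their values were seen. At Pcsk6 the Dia libraries had levels of 0.32 and 0.07 and the Quad libraries -1.16 and -0.89, a difference of 1.21, with an H3K27ac difference of 1.20 and an input difference of 1.07.

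The promoter of Dsg2, which encodes a desmosomal cadherin of epithelia and heart, had the largest difference among the regions higher in Dia. Its levels were -1.33 and -1.05 in Dia and -2.55 and -3.25 in Quad, 3.23-fold apart and below the typical region in both muscles. The input difference there was 0.23, and the call held with the input subtracted. Dia minus Wt was 0.56 at this promoter and Quad minus Wt -1.18, with no match to Sed. Some further genes with called regions near their starts are named after their values were seen, singly and not as a tested group. Dsc2 (desmocollin 2) had a difference of 1.02, Itgb4 (the integrin of hemidesmosomes) of 1.00, and Kdf1 (a keratinocyte differentiation factor) of 1.63. Cdh1 (E-cadherin) had levels of -0.79 and -0.61 in Dia and -1.84 and -1.60 in Quad, a difference of 1.00. Its input difference was 2.08, and with the input subtracted its difference was -1.07, so its direction rests on the input. The Kdf1 region was lower in Dia than in Wt, with a difference of -0.38. The input differences at Dsc2, Itgb4 and Kdf1 were 1.05, 0.73 and 1.34. Epcam, an epithelial adhesion gene also named after its values were seen, was nearest to a region called lower in Dia (-1.22).

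Among the other regions furthest apart on the higher side, an intron of Fto (an RNA demethylase gene) had levels of -0.30 and -0.21 in Dia and -1.74 and -2.14 in Quad, a 3.17-fold difference at chr8:91471849-91475415. This region is 160 kb inside Fto. A second called region, 166 kb upstream of the neighbouring gene Irx3 (an Iroquois transcription factor), had levels of -0.22 and -0.84 in Dia and -2.11 and -1.83 in Quad, with a difference of 1.43. The neighbourhood of Fto and Irx3 held 13 matched regions. The other 11 had differences from -0.89 to 0.46, so the higher regions stood among neighbours most of which were lower in Dia. The input was higher in Dia by 0.91 at the Fto region and by 0.70 at the Irx3 region. At the Fto region Dia minus Wt was 0.48 and Quad minus Wt -1.24.

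An intron of Wfs1 (wolframin, a protein of the endoplasmic reticulum) had levels of -0.62 and -0.51 in Dia and -1.997 and -2.29 in Quad. H3K27ac differed there by 1.60. For H3K4me2, Dia minus Sed was 1.23 and Dia minus Wt 0.43 at Wfs1, with -0.33 for Quad minus Sed and -1.18 for Quad minus Wt. A region upstream of Homer2 (a scaffold protein that binds calcium channels and NFAT factors) had levels of -1.05 and -1.17 in Dia and -2.71 and -2.66 in Quad, with an H3K27ac difference of 1.44. Both marks were thus over 2-fold higher in Dia at Wfs1 and Homer2, from different libraries, and the input differences were 0.89 and 0.84. Mettl21a (a lysine methyltransferase) had the highest Dia levels of the 12, 0.04 and 0.32, against -1.11 and -1.59 in Quad, at an input difference of 1.33. The rest of these 12 were regions nearest to Mir5118, Tbl2, C130060K24Rik, Ppp2ca (the catalytic subunit of phosphatase 2A), Arhgef16 (a guanine nucleotide exchange factor) and Snora33, with differences from 1.54 to 1.60. At Ppp2ca the input difference was 1.77, larger than that of the mark, and the direction turned with the input subtracted (-0.18). All 12 had Dia libraries above both Quad libraries, which the rule for calls requires.

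Regions lower in Dia were led by an intron of Celf2, which encodes an RNA-binding regulator of splicing. Its levels were -2.48 and -2.45 in Dia and -0.19 and -0.17 in Quad, 4.92-fold apart, but the peak spanned only 642 bp in Dia and 500 bp in Quad, and the input was lower in Dia by nearly as much, with a difference of -2.20. An intron of Kcnma1, the large-conductance calcium-activated potassium channel, had levels of -1.80 and -1.23 in Dia and 0.36 and 0.24 in Quad. Its input difference was -1.56.

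A region 34 kb from the start of Klf15, a transcription factor that controls lipid and amino acid use in muscle, had levels of -2.06 and -1.89 in Dia and -0.21 and -0.28 in Quad, 3.35-fold apart. This is the element whose sequence is printed above, chr6:90496288-90496915, and a Quad ATAC-seq peak lay in it. Its input difference was -2.10, and with the input subtracted the sign turned (0.36). The other Klf15 region was also lower in Dia, at -0.87.

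Pvalb, which encodes the calcium buffer parvalbumin of the fastest fibers, had the broadest of the regions furthest apart. Its matched region, chr15:78195953-78206287, covered 10334 bp of the gene and was annotated to its intron 4. Its levels were -1.32 and -1.29 in Dia and 0.44 and 0.34 in Quad, 3.28-fold apart, and the replicates of each muscle lay close together. The region was also lower in Dia than in Sed (-0.89) and Wt (-1.08), and Quad stood above Sed (0.82) and Wt (0.59). A Quad MED1 peak overlapped it and no Dia MED1 peak did, and the input difference was -1.10. The Quad list had 6 peaks nearest to Pvalb and the Dia list 1, and 4 of the Quad peaks overlapped no Dia peak.

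The other regions of the 12 that were lowest in Dia lay near Mir1187, Rpl38 (a ribosomal protein), Mir214, Golph3 (a Golgi protein), Col19a1 (a collagen), Map2k5 (the kinase upstream of ERK5), Tmem232 and Patj (a scaffold of tight junctions), with differences from -1.78 to -1.59. Their input differences ranged from -1.65 to -0.89.

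**Figure D3:**
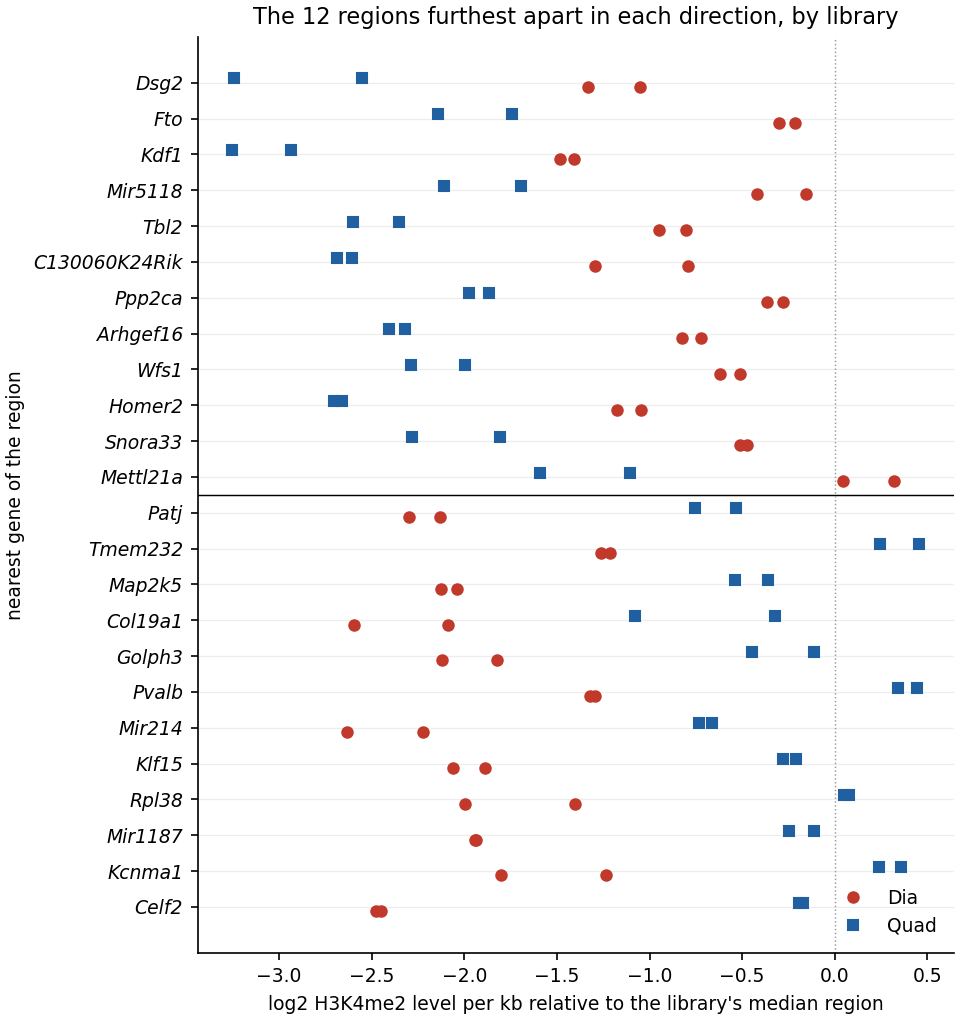
H3K4me2 level of each library at the 12 called regions furthest apart in each direction, labelled by nearest gene (x axis, log2 level per kb relative to the library's median region). Circles are the 2 Dia and squares the 2 Quad libraries. Regions above the line are higher in Dia, and all Quad levels below the line lie under 0.5.

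Transcription factors and cofactors of fiber type were mostly lower in Dia where they were called. The list had 34 genes, 32 of them with a matched region, and of its 100 regions 6 were called lower and 1 higher, against 0.973% and 0.605% of all regions. Its median difference was -0.06, against 0 over all regions. Eya4, a phosphatase and transcriptional coactivator, was the only gene with 3 called regions. The first, chr10:23222200-23222983 in an intron, had levels of -1.75 and -1.47 in Dia and -0.24 and -0.39 in Quad. H3K27ac was lower there too, by -1.39. The second, in another intron and printed above, had levels of -1.69 and -1.43 in Dia and -0.46 and -0.49 in Quad. The third, 193 kb upstream, had levels of -0.64 and -0.63 in Dia and 0.48 and 0.40 in Quad, and H3K27ac levels of -0.17 and -1.06 in Dia and 0.76 and -0.12 in Quad, which did not overlap but were under 2-fold apart (-0.97). The 7 Eya4 regions had a median of -0.82 and ran from -1.31 to 0.075, the lowest median of the 389 genes with at least 5 regions. The input differences at the called Eya4 regions were -1.12, -0.96 and -0.84. In the same order, Dia minus Sed was -0.91, -0.89 and -0.19, and Quad stood above Sed by 0.40, 0.21 and 0.90. Dia minus Wt was -0.68 at chr10:23222200-23222983 and -0.46 at the upstream region, with Quad above Wt by 0.59 and 0.58. The intron printed above had no match to Wt. At the upstream region, Quad thus lay further from Sed and Wt than Dia did.

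An intron of Sox6, a repressor of slow fiber genes, had levels of -0.48 and -0.75 in Dia and 0.48 and 0.37 in Quad. The input difference was -1.22, and with the input subtracted the sign turned (0.17). A region 144 kb from Maf, a factor of the fastest fiber type, had levels of -1.64 and -1.84 in Dia and -0.52 and -0.63 in Quad, with an input difference of -0.98, and against Wt the difference was near 0 (0.068). An intron of Nfatc2, a calcineurin-dependent factor, was lower in Dia by 2.01-fold, and H3K27ac there was lower as well (-1.02), as was the input (-0.77).

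Factors that mark position along the body were called in both directions. Of 102 regions of 38 genes in the regional list 3 were called higher and 1 lower, against 0.605% and 0.973% of all regions, with a median of 0.07. Gata4, a factor of heart and of the mesenchyme that forms the diaphragm, had a region 10 kb upstream with levels of -1.15 and -0.85 in Dia and -2.11 and -1.94 in Quad, a 2.01-fold difference at an input difference of 0.12. There Dia minus Sed was 0.18, with no match between Dia and Wt, and Quad lay below Sed (-0.83) and Wt (-1.39). Another region called higher was the Irx3 region above. Zic1, a zinc finger factor of dorsal structures, had a distal region with levels of -0.68 and -0.62 in Dia and 0.24 and 0.43 in Quad. H3K27ac was lower there too (-1.28), while against Wt the H3K4me2 difference was 0.021.

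The Hox clusters had 29 matched regions, of which 2 were called higher in Dia (0.605% of all regions were) and none lower, with a median of 0.06. A region of 4508 bp over Hoxb2, an anterior Hox gene, had levels of 0.55 and 0.64 in Dia and -0.89 and -0.64 in Quad. It lay above the typical region in both Dia libraries and below it in both Quad libraries. It was higher in Dia than in Sed (1.34) and Wt (1.45), while Quad differed from them by -0.01 and 0.06. The input difference was 1.248, nearly as large as that of the mark. Below the 2-fold rule, Hoxc4 had a region of 0.89 and 0.87 in Dia and -0.06 and -0.09 in Quad, where Quad and Sed differed by -0.06 and the input by 0.07. A region at Hoxd11, a posterior gene, also had a difference of 0.94, but Dia minus Sed was -0.38 and Dia minus Wt -0.03, and Quad lay below Sed (-1.33) and Wt (-1.02). Foxc1 (a forkhead factor of mesenchyme) and Slit2 (a secreted guidance ligand), named after their values were seen, were similar to Hoxc4 in the size of their input differences, 0.14 and 0.22. Their H3K4me2 levels were 0.87 and 0.87 in Dia against -0.24 and -0.06 in Quad for Foxc1, and 0.16 and 0.23 against -1.25 and -1.16 for Slit2. Quad lay below Sed and Wt at Foxc1 (-0.28 and -0.48) and at Slit2 (-0.50 and -0.80).

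Genes of the fast contractile apparatus were mostly lower in Dia but seldom by 2-fold. Of the 20 regions of 13 genes with a match, 17 had a negative difference and 3 a positive one, and the median was -0.29. Only 1 (Pvalb) was called lower, against 0.973% of all regions. Tnnc2, the troponin C of fast fibers, had levels of -0.54 and -0.48 in Dia and 0.32 and 0.22 in Quad. Myl1, the essential light chain of fast fibers, had a region of 13714 bp with levels of 0.19 and 0.32 in Dia and 0.94 and 0.87 in Quad. Myoz3, a Z-disc protein of fast fibers, differed by -0.72, and between soleus and EDL, a slow and a fast muscle described further on, the same region differed by -1.02. The replicates at these regions were closer to each other than to the other muscle, but none passed 2-fold, and the difference was not seen against Sed. Dia minus Sed was -0.03 at Tnnc2, 0.01 at Myl1 and 0.07 at Myoz3, and Quad stood above Sed by 0.77, 0.68 and 0.78. Against Wt, which had no match at Tnnc2 and Myoz3, Dia differed by -0.05 at Myl1. The input differences were -0.15, -0.35 and -0.08. Myh1, Myh4 and Actn3 had peaks in both lists that did not match at 50% overlap, and so are not members.

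Genes of slow and oxidative contraction leaned the other way and less far. Of 24 regions 15 were positive and 9 negative, with a median of 0.13. A region upstream of Mybpc1, the myosin-binding protein C of slow fibers, had levels of -0.20 and 0.20 in Dia and -0.64 and -1.03 in Quad. Its input difference (0.84) was as large as that of the mark (0.82), and Dia minus Sed was 0.90 and Dia minus Wt 1.19. Regions near Mb (myoglobin) and Actn2 (alpha-actinin 2) differed by 0.59 and 0.55, and at the Actn2 region H3K27ac differed by 1.30, past the 2-fold rule for that mark. The only called region of the 24 was lower in Dia, as were 0.973% of all regions. It lay 15 kb upstream of Myl2, the regulatory light chain of slow fibers and heart, with levels of -1.70 and -1.34 in Dia and -0.45 and -0.62 in Quad. Myl3, Myl6b and Tnnc1 had no peak in either list, and Myh7, the slow myosin heavy chain, had 1 peak in Dia and 0 in Quad.

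The myogenic regulatory factors had 7 regions, 6 with a negative difference, and a median of -0.48. The promoter of Myod1 had levels of -0.29 and -0.17 in Dia and 0.54 and 0.23 in Quad, a difference of -0.63. The input difference there was larger (-0.72), so that the sign turned with the input subtracted, and Dia minus Sed was of the other sign (0.19). The positive one was a region 9 kb downstream of Myog, with a difference of 0.71. None was called.

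Glycolysis and glycogen genes had 36 regions, 25 negative and 11 positive, with a median of -0.26. Against 0.973% of all regions, 1 of the 36 was called lower. That was an intron of Pfkfb4, an enzyme that sets the level of fructose 2,6-bisphosphate, with levels of -0.52 and -0.53 in Dia and 0.63 and 0.50 in Quad and an input difference of -0.82. Dia minus Sed was -0.42 and Dia minus Wt -0.28 at this intron, and Quad stood above Sed by 0.68 and Wt by 0.78. The regions of Ppp1r3a, the glycogen-targeting subunit of phosphatase 1 in muscle, numbered 4 and were all negative, reaching -0.86. Ldha, the lactate dehydrogenase of glycolytic tissue, had a region 7 kb upstream with levels of -0.06 and -0.25 in Dia and 0.74 and 0.59 in Quad. There the input difference was -0.19, and H3K27ac differed by -0.21.

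The 49 regions of lipid oxidation genes were near even, 22 positive and 27 negative, with a median of -0.08 and none called. The promoter of Cd36, the fatty acid transporter, had levels of 0.78 and 0.95 in Dia and 0.30 and 0.29 in Quad, and Acsl1, which activates fatty acids, had a region with a difference of 0.79. At the lower end were Acaa2 (-0.70) and Acsl6 (-0.64). Where H3K27ac could be matched, at 19 of the 49 regions, its median difference was 0.52. The growth and atrophy list was centered at 0.01 over 56 regions, with 1 (Klf15) called lower, against 0.973% of all regions. Negative differences in this list included Igf1r (-0.78), Igfbp5 (-0.69) and Mstn (myostatin, -0.56).

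**Figure D4:**
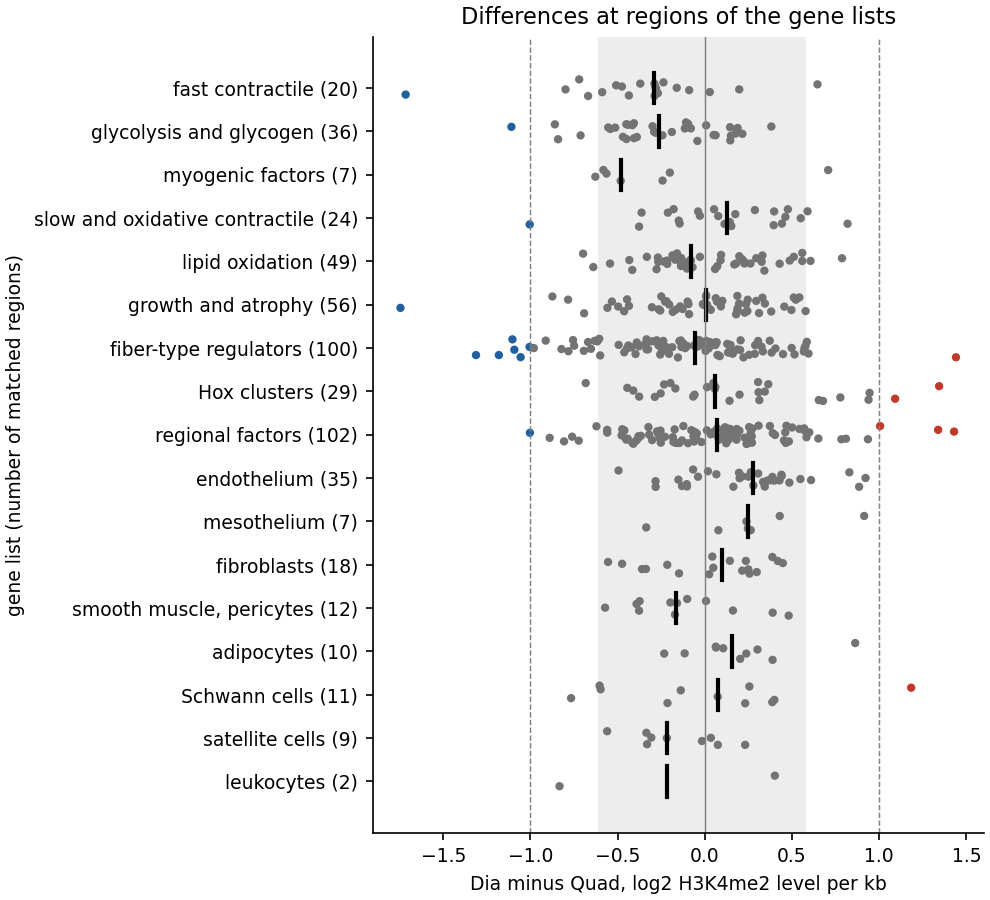
Difference in H3K4me2 between Dia and Quad (x axis, log2 level per kb) at each matched region of the gene lists (y axis, number of regions in parentheses). Points are regions, black bars list medians, dashed lines 2-fold, the grey band the 5th to 95th percentile of all 22297 regions, and coloured points the called regions. Fast contractile, glycolysis and myogenic medians lie at -0.29, -0.26 and -0.48 and the endothelial median at 0.28.

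Markers of cells other than muscle fibers are given beside these lists. Endothelial markers had 26 of 35 regions positive, a median of 0.28 and none called, and their summed level (log2 of the sum over the regions) was 4.38 and 4.36 in the Dia and 4.14 and 4.16 in the Quad libraries. A region upstream of Kdr, the VEGF receptor, had levels of -0.95 and -0.94 in Dia and -1.81 and -1.96 in Quad, and 5 of the 6 Kdr regions were positive. Its input difference (0.98) was larger than that of the mark (0.92). Sox17, an arterial factor, had a region with a difference of 0.83. Soleus minus EDL gave a median of 0.34 over the 20 endothelial regions found there. Mesothelial markers had 6 of 7 regions positive with a median of 0.25, a region of Gpm6a reaching 0.91 and the promoter of Aldh1a2 0.43. The input differences at these were 0.21 and 0.64, and at Aldh1a2 Dia minus Wt was -0.27. Their summed level was 2.37 and 2.36 in Dia against 2.12 and 2.25 in Quad, but the defining markers Msln and Muc16 had no peak in either muscle. Only 5 of the 15 listed genes had a matched region. Lrrn4 and Upk1b had peaks in Dia alone (2 and 1), and Upk3b had a peak in Quad alone (1).

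Fibroblast markers had 12 of 18 regions positive and a median of 0.10, with summed levels of 3.67 to 3.74 in Dia and 3.59 to 3.68 in Quad, which overlapped. Their furthest members were Gsn (-0.56) and Pdgfra (-0.47). Adipocyte markers had 8 of 10 positive (median 0.15), led by a region 48 kb upstream of Pparg at 0.86, with summed levels of 3.25 to 3.28 in Dia and 3.04 to 3.08 in Quad. At this Pparg region Dia minus Wt was -0.09 and Quad lay below Wt (-0.99), with no match to Sed. Cidea, the other member named, was at 0.30, with 0.49 for Dia minus Sed and -0.01 for Dia minus Wt. Plin1, Cidec and Ucp1 had no peak in either list. Smooth muscle and pericyte markers had 4 of 12 positive (median -0.17), with Abcc9 at -0.57 and Acta2 at 0.48 and summed levels of 3.07 to 3.09 in Dia and 3.14 to 3.31 in Quad.

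Schwann cell markers had 6 of 11 positive and 1 called higher, against 0.605% of all regions. The called region lay 28 kb from Foxd3, a factor of the neural crest. It had levels of -0.58 and -0.50 in Dia and -1.49 and -1.99 in Quad and an input difference of 0.68. Sox10 had no peak, Mbp was at -0.60, and the summed levels were 2.74 in both Dia libraries and 2.72 to 2.73 in Quad. Satellite cell markers had 3 of 9 positive (median -0.22), with Pax7 at -0.56 and Vcam1 at -0.34 and summed levels of 2.39 to 2.42 in Dia and 2.54 to 2.56 in Quad. Leukocyte markers had only 2 regions, at Mrc1 (-0.83) and Ptprc (0.40), with summed levels of -0.73 to -0.60 in Dia and -0.33 to -0.07 in Quad, and C1qa, Cd3e, Cd79a and Itgam had no peak in either list. The part of other cell types in the calls was not tested.

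Loci taken as common to muscles were not equal. Of their 9 regions 7 had a negative difference, with a median of -0.19, and the range ran from -0.78 at Actb (beta-actin, named after its values were seen), where all 3 regions were negative, to 0.19. Ngdn, a gene with a housekeeping promoter, differed by -0.17 and Gapdh by 0.19. At Acta1, the skeletal alpha-actin, the promoter region differed by -0.61 and a neighbouring region by -0.66, while H3K27ac differed by -0.01 at both. Myh6, the cardiac myosin, had no peak in either list.

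H3K27ac, measured in other libraries of the same muscles, could be matched at few of the called regions but pointed the same way there. Over all H3K27ac peaks matched by the same rule, 4.26% of 18822 were called, 1.59% higher and 2.67% lower in Dia. Of the 135 regions with more H3K4me2 in Dia 19 had an H3K27ac pair, of which 18 were higher in Dia, with a median of 0.98, 9 called higher and 1 called lower. The exception was a region at Psmd9, an assembly chaperone of the proteasome, where H3K4me2 differed by 1.33 and H3K27ac by -1.10. Of the 217 lower regions 45 had a pair, of which 41 were lower, with a median of -0.96, 20 called lower and none higher. Over all 7818 matched regions with a pair the median was 0.05 and 55.5% were positive. The marks' lists share their input libraries, and at these regions the input differed as described above.

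Soleus (a slow oxidative muscle) and EDL (the extensor digitorum longus, fast and glycolytic) provide H3K4me2 libraries not used in the comparison, from sedentary wild-type C57BL/6 mice with muscles of 3 animals pooled per sample. Of 26032 matched soleus and EDL regions 0.626% were called, 0.365% higher and 0.261% lower in soleus. Of the regions higher in Dia 78 were found there and 62 had more H3K4me2 in soleus, with a median of 0.20 and 1 called higher. Of the regions lower in Dia 80 were found and 65 had less in soleus, with a median of -0.38, 7 called lower and none higher. Over all 18139 matched regions found the median was -0.03 and 45.0% were positive. Among the called regions found there, the soleus difference was thus mostly of the same sign and smaller in its median. The other called regions had no match in soleus and EDL. Among the fast contractile regions found in both, the median of soleus minus EDL was -0.43 (10 regions), and for slow and oxidative contraction it was -0.10 (13 regions), against medians of -0.29 and 0.13 for Dia minus Quad.

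**Figure D5:**
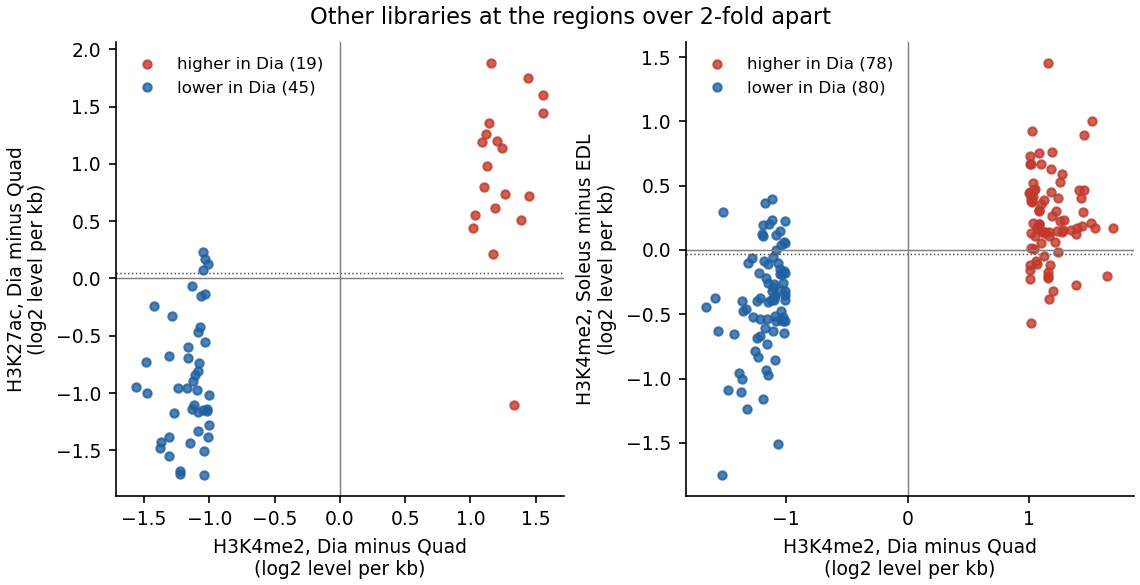
Differences at the called regions in libraries that were not used to call them, with the H3K4me2 difference between Dia and Quad on the x axis of both panels. The y axis is the H3K27ac difference between Dia and Quad at 19 higher and 45 lower regions (left) and the H3K4me2 difference between soleus and EDL at 78 and 80 regions (right), all as log2 level per kb, and the dotted line is the median over all regions found. Of the points, 18 and 41 on the left and 62 and 65 on the right have the sign of the x axis.

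Dupd1, a phosphatase gene, was the only nearest gene with called regions in both directions, and is named for that reason after its values were seen. A region inside the gene had levels of -1.22 and -1.74 in Dia and -0.33 and -0.35 in Quad, with differences of -0.60 for H3K27ac and -0.93 between soleus and EDL. A region 5 kb upstream had levels of -1.25 and -1.13 in Dia and -2.21 and -2.58 in Quad, with a difference of 0.61 for H3K27ac. The called regions were otherwise spread over genes, with 135 nearest genes on the higher side and 213 on the lower. Of 389 genes with at least 5 matched regions, 15 had negative differences at every one and 10 positive, among them Farp1 and Poll (medians of -0.69 and -0.59) and Ralb and Npas3 (0.50 and 0.44). With as few as 5 regions, a gene can be all of 1 sign by chance. How many of the 389 would be was not tested.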

How the data were processed

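ChIP-seq reads were aligned with Bowtie, version 1.2 per the submitters' processing notes, while the study's methods name another version (the notes list builds mm10 and mm9, and the coordinates here are mm10), and HOMER, through DESeq2, kept peaks of a group in which the replicates exceeded their input. The deposited peak lists give, per the file headers, a log2 tag value for each library and input, taken here to be DESeq2's regularized log within a list. The transform is not named, and if so the values are shrunken and differences understated. The lists also hold the authors' adjusted p-value and a peak score, used only in alternatives, and the authors' fold changes of mark over input, not used. The ATAC-seq and MED1 lists give the authors' tag signal per peak, of which only the overlap by at least 1 bp was used, except that the signal chose the ATAC-seq peak on which a printed window was centred.

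From these, peaks were matched, divided by width and centred as described, in Python 3.11.15 with numpy 2.4.6, pandas 2.3.3, scipy 1.17.1, pysam 0.24.0 and matplotlib 3.10.9. The calling step was tested on simulated levels with noise set to the spread between replicates. That noise holds no variation between sets of the same muscle, so the simulation says nothing about it. Where one list had several candidates, the best reciprocal overlap was kept. H3K4me2 libraries not named in the comparisons were not analysed here. Nothing in the labels says whether replicates came from separate days, and the spread between them may be technical in part. The members and gene lists were chosen with earlier results of these data known. The genes named are the nearest genes, by the authors' annotation, of the 12 called regions furthest apart in each direction, genes with at least 3 called regions in 1 direction, listed genes with a called region, up to 4 members per list of muscle genes and 2 per marker list with the largest differences, and Ngdn, Gapdh, Acta1 and Myh6. Others are named as chosen after their values were seen. The nearest gene need not be the gene a region acts on. Alternatives for overlap, width, centring, levels, libraries, threshold, input and score were tried. Some of the genes the rule chose are not reported here.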

Additional observations from a re-analysis of the deposited data

How the results depend on the processing

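No paired analysis was possible because no test was run between the separately normalized lists, and replicate numbers tie no Dia sample to a Quad sample. Counts below are called regions, then those higher and lower in Dia, against 352, 135 and 217, and the rank correlation against 0.908. Overlap of at least 30% gave 538, 217 and 321, and of at least 80% gave 92, 35 and 57 (correlation 0.920). Without the width correction they were 1176, 483 and 693 (0.963), at similar widths only 147, 56 and 91 (0.925), without the regions of the lowest 25% of levels 107, 23 and 84 (0.828), and with the authors' adjusted p-value under 0.001 in both lists 88, 30 and 58 (0.862). Quantile normalization gave 347, 98 and 249, a split further to the lower side than 135 and 217. A 1.5-fold threshold gave 2271, 1050 and 1221. Sed in place of Quad gave 228, 23 and 205 (0.897), and Wt gave 287, 188 and 99. Of alternatives chosen after seeing the data, subtracting the input gave 219, 183 and 36 (0.710), and the authors' peak score per kb 243, 64 and 179 (0.901). Leaving out each library in turn gave 374 to 443, 154 to 173 and 205 to 270, with correlations from 0.897 to 0.909. The naming rule chose 80 regions, of which 71 kept their sign with the input subtracted, 39 of the 45 found kept it against Sed and 39 of 48 against Wt. Of those called, the sign turned at Klf15 (0.36), Sox6 (0.17) and Ppp2ca (-0.18) with the input subtracted and at Maf (0.068), Zic1 (0.021) and Kdf1 (-0.38) against Wt. All 80 kept their sign when a library was left out, under quantile normalization, at 30% overlap and by the peak score, and 79 without the width correction. For called regions, leaving out a library could hardly turn the sign, since the rule put both Dia libraries on the same side of both Quad libraries. The setting of 30% overlap used the same libraries at these regions, so neither count is independent support. The causes of the shifts between settings were not tested. The calls rest on weak, narrow regions, 2 libraries a muscle and values that may be shrunken, and regions present in only 1 muscle are outside the comparison.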
